A study of Mus musculus with 4 samples.

Results

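The messenger RNAs of 10 regulators of the G1 phase of the cell cycle were followed in CD8 T cells of mouse hepatocellular carcinoma. The genes were taken by symbol from the deposited count table and are the D cyclins Ccnd2 and Ccnd3, the kinases Cdk4 and Cdk6, the CDK inhibitors Cdkn1a, Cdkn1b, Cdkn2c and Cdkn2d, and the retinoblastoma family members Rb1 and Rbl2. All 10 of 10 were found among the 14934 genes of the table, and all 10 were among the 11563 genes tested. The tumour-infiltrating cells were sorted by flow cytometry into cells with and without JAML, the junctional adhesion molecule-like receptor, with libraries A and B in each of the 2 groups, made with a SMARTER messenger RNA kit. The labels give both groups the genotype WT and name no treatment, age, strain or tumour model. Whether A and B are separate animals, pools or sorts is not stated, so a p-value reflects nothing beyond how far these 4 libraries spread, and that spread may be technical.

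A resting T cell enters the cycle when signals from its antigen receptor and from interleukin-2 raise D cyclins. These bind CDK4 or CDK6, and the active kinases phosphorylate the retinoblastoma proteins, which frees E2F transcription factors to switch on the genes of DNA synthesis. Inhibitors oppose this step: p18 and p19, encoded by Cdkn2c and Cdkn2d, bind CDK4 and CDK6 alone, while p21 and p27, encoded by Cdkn1a and Cdkn1b, bind cyclin-kinase complexes more broadly. In resting cells p130, the product of Rbl2, holds E2F target genes silent within the DREAM complex, and p27 is abundant.

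None of the 10 genes passed the test used here. The comparison asks whether transcripts of G1 control differ with surface JAML. With edgeR's quasi-likelihood test 0 of 10 genes had an adjusted p under 0.05, where 0% of all genes tested did, and 1 of 10, Cdk6, had an unadjusted p under 0.05, where 885 genes (7.65%) did. DESeq2 called 1 of the 10, again Cdk6, and also 885 genes (7.65%), of which 614 were among the former 885, while limma-voom called 0 genes, with 683 at an unadjusted p under 0.05. Fitted log2 fold changes of JAML-positive against JAML-negative cells were above 0 for 4 of 10 genes, against 50.7% of all genes, and their median was -0.04, against 0.01 for all genes. This split depended on the scaling: with trends of transcript length and GC content removed it was 7 of 10 against 51.5% of all genes, and with the same trends removed but not centred in each library it was 2 of 10 against 36.3%, the median of all genes then being -0.21. Both libraries of a group lay above both of the other for 3 of 10 genes, against 38.5% of all genes, so the share of separated genes was not above the background.

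Libraries held 27530187 to 30569728 counts, and the adjusted p-values below are edgeR's with Benjamini-Hochberg adjustment over all 11563 genes. Levels are CPM, counts scaled to a common library size with edgeR's TMM factors, and where 2 values are given for a group, library A comes first. Jaml itself, the gene of the sort marker, was at 131 and 117 CPM in the JAML-negative libraries and at 138 and 147 CPM in the JAML-positive ones. Its log2 fold change was 0.20 (standard error, SE, 0.26, adjusted p = 0.881). It was 0.07 with length and GC trends removed. With these removed without centring it was -0.16, where the median of all genes was -0.21. Each direction below therefore rests on the labels. The T cell genes Cd8a (1024 to 1113 CPM) and Cd3e (378 to 443 CPM) were abundant in all 4 libraries. JAML-positive A stood apart from the rest, with 12.5% of its counts in ribosomal protein genes against 7.71% to 8.62%. Markers of other cells also differed: 9 of the 12 listed markers of dendritic cells and MHC class II (11 tested) had both JAML-positive libraries above both JAML-negative ones, with a summed level of 281 to 288 CPM in the JAML-negative libraries and 516 to 703 CPM in JAML-positive libraries, where 20.3% of all genes tested were apart and higher. Itgax of the same list had the groups apart the other way (124 and 116 against 75.1 and 61.4 CPM). Macrophage and monocyte markers summed to 82.7 to 89.0 CPM in the JAML-negative libraries and 165 to 205 CPM in the JAML-positive ones, a difference carried by Mpeg1 (7.50 and 13.9 against 119 and 89.6 CPM). Without Mpeg1 the other 8 summed to 75.2 and 75.1 against 85.7 and 75.6 CPM. Over 7 B and plasma cell markers the sums were 10.5 and 18.1 against 130.3 and 84.9 CPM. Jchain (4.57 and 0.327 against 98.5 and 51.0 CPM) made most of the JAML-positive sums. Of the 7, 3 had both JAML-positive libraries above both JAML-negative ones and 0 the reverse, against 20.3% of all genes tested apart and higher. Cd79b overlapped between groups (5.84 and 17.7 against 6.85 and 19.5 CPM), and Cd79a had 0 and 2 against 0 and 4 counts. Mzb1 was at 0 in both JAML-negative libraries. So was Sdc1, which had 167 and 0 counts in the JAML-positive ones. Pax5 had 1 count in JAML-negative A and 0 in the other 3 libraries. T cell markers summed to 3497 to 3540 and 3416 to 3981 CPM, CD4 and regulatory T cell markers to 238 to 239 and 226 to 304 CPM, natural killer cell markers to 316 to 411 and 333 to 340 CPM, and hepatocyte markers to 9.30 to 44.2 and 29.9 to 32.0 CPM. The CD4 and regulatory T cell sums hide moves in both directions. Of these 5 markers 2, Cd4 and Cd40lg, were apart and higher in JAML-positive libraries, against 20.3% of all genes tested. Ikzf2 alone was apart and lower (104 and 83.0 against 41.8 and 58.6 CPM). Cd40lg was at 0.0354 and 2.54 against 13.5 and 33.5 CPM. Of the hepatocyte markers Apoa1 and Apoa2 had 134 and 214 counts in JAML-negative A and 0 in the other 3 libraries, and Ttr had 1 count in JAML-negative B and 0 in the other 3. The part of these cells, and of the ribosomal share, in the levels of the G1 genes was not tested, and in bulk RNA fewer cells of a type and less RNA per cell cannot be told apart.

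The sequences upstream of Cdk4, Cdk6 and Cdkn1b are shown because these are the kinases of the G1 step and the inhibitor whose JAML-positive values were both below the JAML-negative ones. They were picked after the values and the motif matches had been seen. They come from RefSeq on GRCm38.p6, which had promoter windows for 8 of the 10 genes (11 windows, several genes having more than 1 start). Each is the longest unbroken stretch free of annotated exons of its gene within the 250 bases before the start, printed 5′ to 3′. Capitals mark 3 searched motifs, sought on both strands: the E-box CACGTG, which MYC and related factors bind, the GC box GGGCGG, which Sp1 binds, and the TATA box TATAAA. Cdk4 lies on the plus strand (chr10:127063285-127063533), Cdk6 on the plus strand (chr5:3343789-3343892, before a start that lies inside the annotated span of the gene) and Cdkn1b on the plus strand (chr6:134920151-134920400).
Cdk4: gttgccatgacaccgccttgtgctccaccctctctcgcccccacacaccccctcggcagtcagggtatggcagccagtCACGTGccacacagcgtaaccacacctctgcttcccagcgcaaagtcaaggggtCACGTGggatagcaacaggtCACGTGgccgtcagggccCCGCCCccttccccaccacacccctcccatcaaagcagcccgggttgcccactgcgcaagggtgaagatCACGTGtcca
Cdk6: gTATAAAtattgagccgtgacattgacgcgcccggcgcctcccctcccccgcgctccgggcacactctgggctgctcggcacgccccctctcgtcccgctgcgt
Cdkn1b: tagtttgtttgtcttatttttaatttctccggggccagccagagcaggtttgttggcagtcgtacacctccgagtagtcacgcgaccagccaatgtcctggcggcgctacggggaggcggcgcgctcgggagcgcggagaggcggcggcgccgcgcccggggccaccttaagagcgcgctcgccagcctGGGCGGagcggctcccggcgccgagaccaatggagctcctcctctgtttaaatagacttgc

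The Cdk4 sequence held 4 E-boxes and 1 GC box, that of Cdk6 held 1 TATA box (an E-box of its window lies outside the printed stretch), and that of Cdkn1b held 1 GC box. In the 250 bases before the start of 32851 RefSeq windows, 6.02% held an E-box, 32.7% a GC box and 12.4% a TATA box, and 7 windows (0.021%) held at least 4 E-boxes. Over the 11 windows of the G1 genes, 7 held a GC box and 2 an E-box. Their GC content ran from 42.8% to 77.2%, against a median of 52.4% for all windows. Ccnd3, Cdkn1a and Cdkn2c had 2 windows each, and no comparison at equal GC content was made. The E2F words TTTGGCGC, TTTCCCGC, TTTCGCGC and TTTGCCGC were in 0 of the 11 windows and in 1.86% of all windows, the FOXO word TGTTTAC in 1 and in 3.17%, and the CHR word TTTGAA, found in DREAM target promoters, in 1 and in 16% of all. The E2F, FOXO and CHR words were searched first, and the other 3 motifs were added after those results. These matches describe letters in a short window and say nothing of binding.

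**Figure D1:**
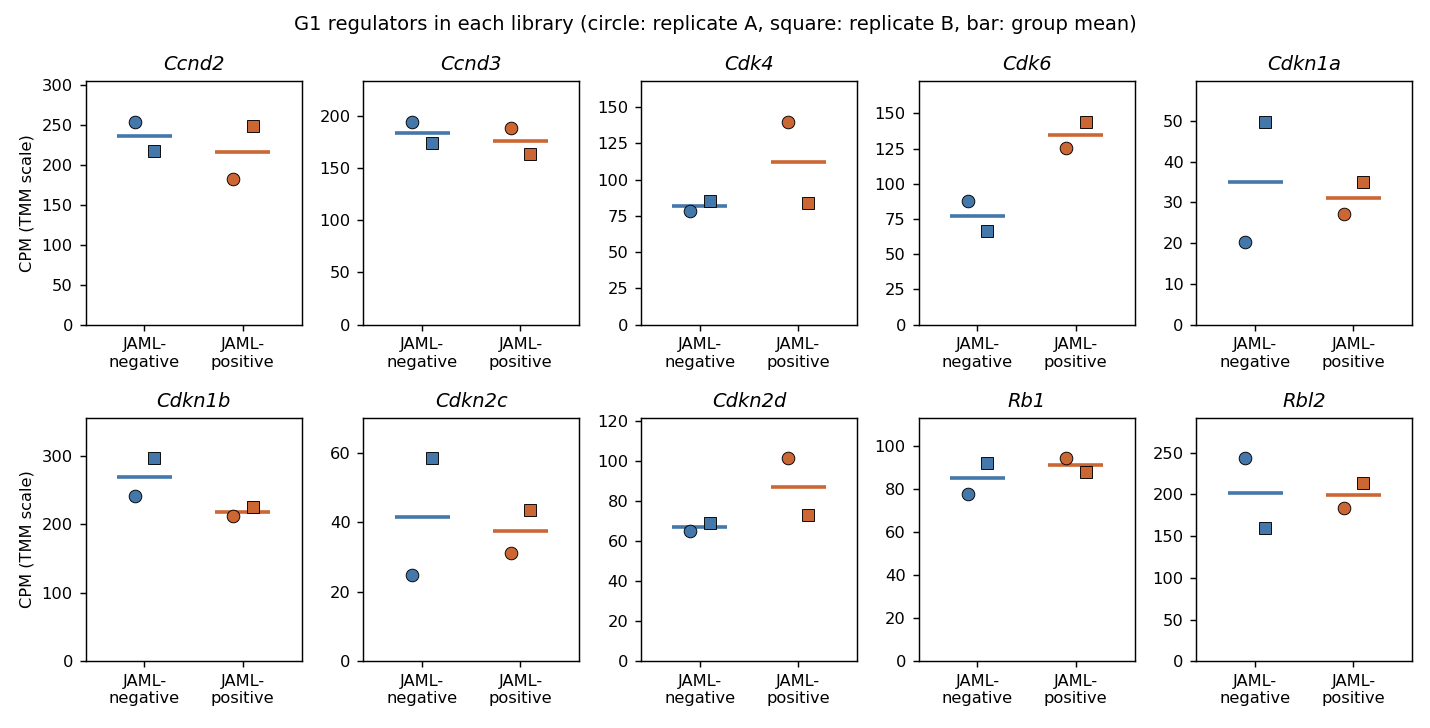
CPM on the TMM scale (y axis, from 0) for each of the 10 genes in the 4 libraries, with circles for replicate A, squares for replicate B and bars for group means. Cdk6 has both JAML-positive libraries (126 and 144 CPM) above both JAML-negative ones (88.1 and 66.8 CPM), while Cdkn1a and Cdkn2c have the largest ratio between libraries of the JAML-negative pair.

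The D cyclins, which carry mitogen signals to the kinases, had group means within the spread of their libraries. Ccnd2 (Entrez 12444, chromosome 6, 127125162 to 127152188), the cyclin D2 gene, was at 255 and 218 CPM in the JAML-negative libraries and at 183 and 249.5 CPM in the JAML-positive ones. The groups overlapped, the lowest and the next to highest value both being JAML-positive, and the log2 fold change was -0.12 (SE 0.25, adjusted p = 0.930). Ccnd3 (Entrez 12445, chromosome 17, 47505051 to 47599689), the cyclin D3 gene, was at 194 and 173 CPM in the JAML-negative libraries and 188 and 163 CPM in the JAML-positive ones. In both groups library A was above library B, and the log2 fold change was -0.07 (SE 0.24, adjusted p = 0.964). The 95% intervals of edgeR reached from 0.633 to 1.33-fold for Ccnd2 and from 0.659 to 1.38-fold for Ccnd3, so differences of that size could not be told from 0. With length and GC trends removed the fold changes were 0.00 for Ccnd2 and 0.10 for Ccnd3 on the log2 scale. Without centring they were -0.23 and -0.14, where the median of all genes was -0.21. The fitted directions thus depended on the processing.

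The third D cyclin, Ccnd1, is no member of the set but completes the family, and it is little expressed in T cells. It had 31 and 13 counts in the JAML-negative libraries and 482 and 381 counts in the JAML-positive ones, or 0.785 ± 0.442 and 15.2 ± 4.28 CPM (SD, n = 2). The groups were far apart, with a log2 fold change of 4.24 (SE 1.41), yet the adjusted p was 0.609 with edgeR and 3.30e-04 with DESeq2. Exons of LTO1 on the opposite strand cover 23.4% of the exonic bases of Ccnd1, and LTO1 had 138 and 636 counts in the JAML-negative libraries and 338 and 692 counts in the JAML-positive ones. The same JAML-positive libraries had the higher sums of dendritic cell and of B and plasma cell markers and the higher Mpeg1 given above, and the part of such cells in Ccnd1 was not tested.

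Within a library the shares of the D cyclins do not depend on any scaling between libraries. Per kilobase of the longest transcript, Ccnd3 made 55.4% and 56.5% of D cyclin transcripts in the JAML-negative libraries and 59.1% and 49.8% in the JAML-positive ones. Ccnd2 made 44.3% and 43.3% against 35.0% and 46.4%. The JAML-negative pair was close together and lay inside the range of the JAML-positive pair for both genes (exact permutation test, two-sided, p = 1.0 for each, where 0.333 is the smallest p that 2 against 2 allows). Ccnd1 made 0.323% and 0.159% in the JAML-negative libraries and 5.91% and 3.83% in JAML-positive cells (exact p = 0.333). Which of Ccnd2 and Ccnd3 made more depended on the length used. With the length of all annotated exons Ccnd3 made 44.8% and 45.9% against 47.9% and 39.0%. Ccnd2 then made 54.7% and 53.8% against 43.4% and 55.6%, above Ccnd3 in all libraries but JAML-positive A. The same order was found with counts not divided by length.

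**Figure D2:**
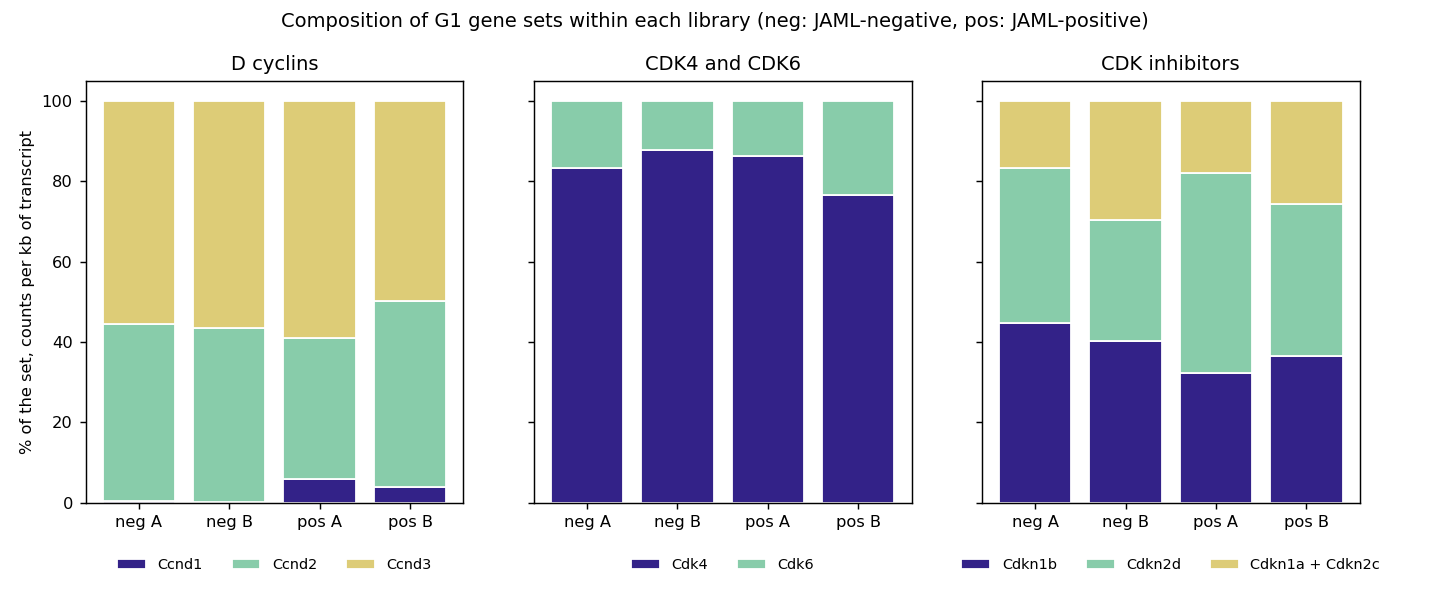
Composition of 3 gene sets within each library in percent of counts per kilobase of transcript (bars stack to the whole set; neg and pos are JAML-negative and JAML-positive). Ccnd1 is visible only in the JAML-positive bars, and Cdkn1b makes 40.3% to 44.7% of the inhibitors in the JAML-negative libraries and 32.4% to 36.5% in JAML-positive libraries.

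Of the 10 genes, the kinase gene Cdk6 had the log2 fold change farthest from 0. Cdk6 (Entrez 12571, chromosome 5, 3341004 to 3531008) was at 88.1 and 66.8 CPM in the JAML-negative libraries and at 126 and 144 CPM in the JAML-positive ones. The groups did not overlap, and the log2 fold change was 0.80 (SE 0.30), or 1.74-fold with a 95% interval of 1.11 to 2.75-fold. By unadjusted p (0.0204) Cdk6 ranked 296th of 11563 genes, and its adjusted p was 0.609 with edgeR and 0.0198 with DESeq2. In each of 15 other settings the log2 value was above 0, from 0.62 to 1.05, and in the 14 settings other than DESeq2 the adjusted p was 0.381 to 0.881. These settings refit the same libraries, and where groups do not overlap, leaving a library out can hardly turn the sign. The highest value came with length and GC trends removed, and Cdk6 has the longest transcript of the set at 11.53 kilobases.

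Cdk4 (Entrez 12567, chromosome 10, 127063535 to 127067288), the other D cyclin partner, was at 78.5 and 85.4 CPM in the JAML-negative libraries and at 140.0 and 83.9 CPM in the JAML-positive ones. Its higher mean in JAML-positive cells came from library A, since library B lay between the JAML-negative libraries. The log2 fold change was 0.44 (SE 0.34, adjusted p = 0.762), or 0.04 with JAML-positive A left out. On the opposite strand exons of Tspan31 overlap 19.7% of the exonic bases of Cdk4. Tspan31 had 1702 and 911 counts in the JAML-negative libraries and 798 and 995 counts in the JAML-positive ones, against 2218, 2352, 3702 and 2624 counts of Cdk4 in the same order, so Tspan31 was highest in JAML-negative A and Cdk4 in JAML-positive A. Per kilobase Cdk4 was the main kinase transcript in every library, at 83.3% and 87.8% of the Cdk4 and Cdk6 sum in the JAML-negative libraries and 86.2% and 76.6% in the JAML-positive ones (exact permutation p = 0.667).

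Of the inhibitors, Cdkn1b and Cdkn2d had groups that did not overlap, and Cdkn1a and Cdkn2c had groups that did. Cdkn1b (Entrez 12576, chromosome 6, 134920401 to 134925525), the gene of p27, was at 241.5 and 296 CPM in the JAML-negative libraries and at 211 and 225 CPM in the JAML-positive ones. Both JAML-positive libraries lay below both JAML-negative ones, and the log2 fold change was -0.30 (SE 0.23) with an adjusted p of 0.763. The interval reached from 0.574 to 1.15-fold, and the value stayed below 0 in all 15 other settings, from -0.45 to -0.14. As for Cdk6, these settings refit the same libraries. Cdkn2d (Entrez 12581, chromosome 9, 21288459 to 21291421), the gene of p19, was at 65.1 and 69.3 CPM in the JAML-negative libraries and at 101 and 72.9 CPM in the JAML-positive ones. The groups did not overlap, but JAML-positive B lay close to the JAML-negative pair, and the log2 fold change of 0.37 (SE 0.34, adjusted p = 0.813) became 0.12 with JAML-positive A left out, 0.16 with length and GC trends removed and -0.08 with these removed without centring. The higher ribosomal share of JAML-positive A stands beside its high Cdk4 and Cdkn2d, and its part in them was not tested.

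Cdkn1a and Cdkn2c had the largest ratios between the JAML-negative libraries, while between the JAML-positive ones Cdk4 did. Cdkn1a (Entrez 12575, chromosome 17, 29090979 to 29100722), the p21 gene and a target of p53, was at 20.2 and 49.8 CPM in the JAML-negative libraries and at 27.3 and 35.1 CPM in the JAML-positive ones. Cdkn2c (Entrez 12580, chromosome 4, 109660876 to 109666756), the p18 gene, was at 24.9 and 58.4 CPM in the JAML-negative libraries and at 31.3 and 43.6 CPM in the JAML-positive ones. For both genes the JAML-negative pair enclosed the JAML-positive pair, and library B was above library A in both groups. The ratio of B to A for Cdkn1a was 2.46 (95% counting interval 2.23 to 2.72) in the JAML-negative libraries and 1.29 (1.17 to 1.42) in JAML-positive cells, and for Cdkn2c it was 2.35 (2.15 to 2.57) and 1.39 (1.28 to 1.52). These replicate differences were beyond counting error, which is all that such intervals cover. Log2 fold changes were -0.15 for Cdkn1a (SE 0.54, adjusted p = 0.964) and -0.13 for Cdkn2c (SE 0.51, adjusted p = 0.967), and they turned to 0.64 and 0.61 with JAML-negative B left out.

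The counts of these 2 inhibitors kept nearly 1 ratio in all libraries. Cdkn1a had 0.814 and 0.853 counts per count of Cdkn2c in the JAML-negative libraries and 0.871 and 0.805 in the JAML-positive ones, so the highest ratio was 1.08 times the lowest. This was the steadiest of the 45 pairs among the 10 genes, whose median was 2.06 and whose largest value was 3.76. Among the genes tested with counts in every library, 1 other gene, Cnn3, had a ratio to Cdkn1a at least as steady, 1.07 from lowest to highest (263, 673, 348 and 529 counts in the same order of libraries). The pair and Cnn3 were chosen after their values were seen, the likeness rests on 4 libraries, and 1335 genes (11.5%) were over 1.25-fold higher in B than in A in both groups, as were 2 of the 10 genes here.

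**Figure D3:**
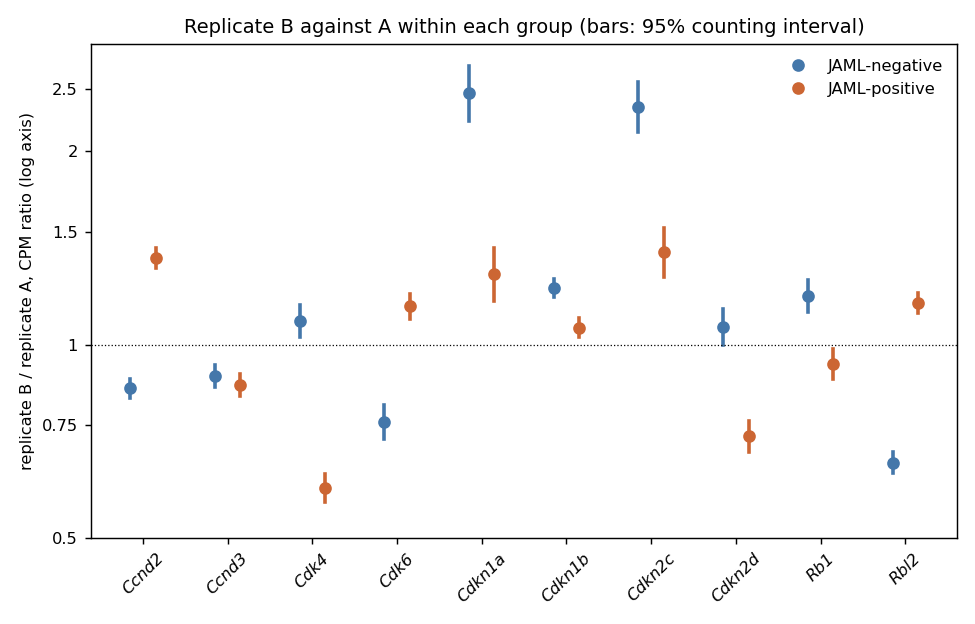
Ratio of CPM in replicate B to replicate A within each group (y axis, logarithmic; blue JAML-negative, orange JAML-positive; bars are 95% counting intervals) for each of the 10 genes. Cdkn1a and Cdkn2c stand highest in the JAML-negative pair, at 2.46 and 2.35, and Cdk4 lowest in the JAML-positive pair, at 0.599.

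The 4 inhibitors together had a lower mean share of the kinase and inhibitor transcripts in JAML-positive cells. Per kilobase they made 72.1% and 77.3% of the sum with Cdk4 and Cdk6 in the JAML-negative libraries and 64.4% and 71.7% in the JAML-positive ones. The groups did not overlap, although JAML-positive B was only just below JAML-negative A, and the means were 74.7% ± 3.67 and 68.1% ± 5.12 (SD, n = 2; exact permutation p = 0.333, the smallest possible). The difference of -6.63 percentage points was -3.01 with JAML-positive A left out and -11.5 when counts were not divided by length. A share also falls when the kinases rise, so it does not show that the inhibitors were lower. Log2 fold changes were 0.44 and 0.80 for Cdk4 and Cdk6. For the inhibitors they went both ways: -0.30 for Cdkn1b, -0.15 for Cdkn1a, -0.13 for Cdkn2c and 0.37 for Cdkn2d. Among the inhibitors Cdkn1b made 44.7% and 40.3% in the JAML-negative libraries and 32.4% and 36.5% in the JAML-positive ones (exact p = 0.333). Cdkn2d made 38.6% and 30.2% against 49.6% and 37.9%, which overlapped (exact p = 0.667). With the length of all annotated exons these shares were 37.8% and 30.4% against 49.5% and 38.0%, and the groups no longer overlapped (exact p = 0.333), nor did they with counts not divided by length. The other 3 genes of these inhibitor families were each counted in 1 library: Cdkn1c had 114 counts in JAML-positive A and 0 in the other 3 libraries, and Cdkn2a and Cdkn2b had 116 and 150 counts in JAML-positive B and 0 in the other 3. Such a pattern, at least 100 counts in 1 library and 0 elsewhere, was found for 799 genes of the table. A count of 0 allows up to 3 counts, or 0.0959 to 0.113 CPM, by counting error.

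The retinoblastoma family, the substrates of the D cyclin kinases, gave no call. Rb1 (Entrez 19645, chromosome 14, 73192858 to 73325951) was at 77.7 and 92.4 CPM in the JAML-negative libraries and at 94.4 and 88.1 CPM in the JAML-positive ones. The log2 fold change was 0.10 (SE 0.31, adjusted p = 0.958) and the interval reached from 0.671 to 1.71-fold. The value was 0.20 with length and GC trends removed. It was -0.03 with these removed without centring, where the median of all genes was -0.21. Rbl2 (Entrez 19651, chromosome 8, 91070057 to 91123844), the p130 gene, was at 243 and 159 CPM in the JAML-negative libraries and at 184 and 214 CPM in the JAML-positive ones. The JAML-negative pair enclosed the JAML-positive pair, and the log2 fold change was -0.02 (SE 0.27) with an adjusted p of 0.993. It was 0.06 with length and GC trends removed and -0.17 with these removed without centring. Rbl1, the p107 gene and the third of the family, was at 104 and 88.2 CPM against 118 and 123 CPM (0.33, SE 0.29, adjusted p = 0.796). Among genes of the table, exons on the opposite strand overlap part of Rb1 (Rcbtb2 8.1% and Lpar6 6.8% of its exonic bases), of Rbl2 (Aktip 9.2%) and of Ccnd3 (Bysl 4.1%). Annotated genes outside the table also overlap Rbl2 (Gm45464, 11.8%) and Cdkn1a (AC167363.2, 7.7%), and others overlap Ccnd2 and Cdk6 by at most 4.0% each.

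**Figure D4:**
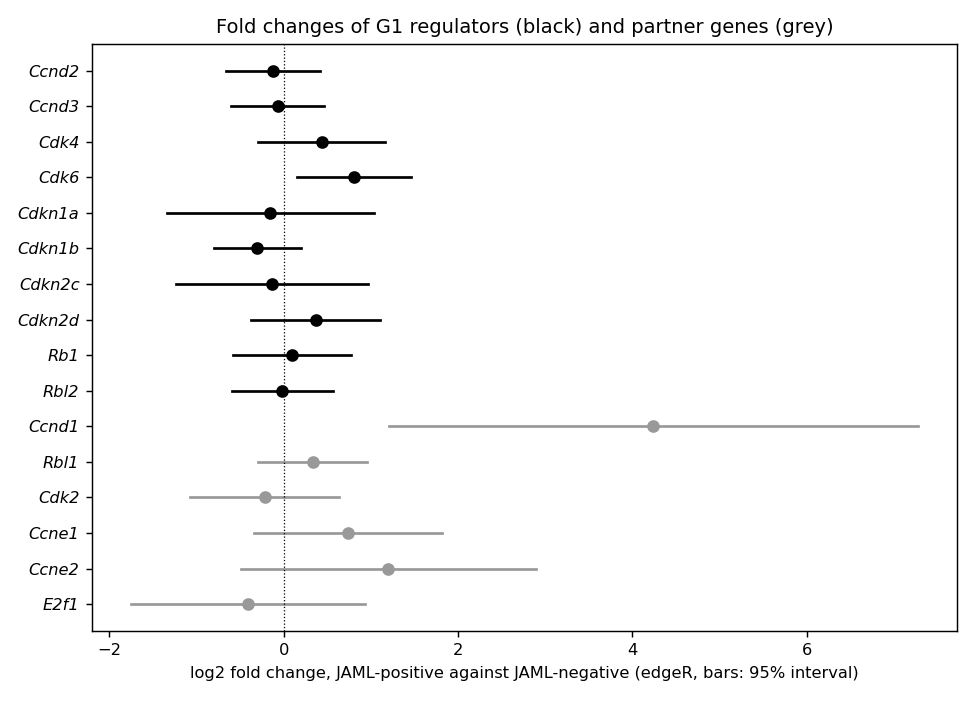
Log2 fold change of JAML-positive against JAML-negative cells with 95% intervals from edgeR (x axis) for the 10 genes in black and 6 partner genes in grey. Of the 10 genes the interval of Cdk6 alone (0.15 to 1.46) lies off 0 before adjustment, and the intervals of Cdkn1a and Cdkn2c are the widest of the 10.

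Compared per kilobase of transcript and over all 4 libraries, Cdkn2d and Cdkn1b were the most abundant of the 10 (54.2 ± 11.5 and 53.5 ± 8.18 CPM per kilobase, mean ± SD over 4 libraries). Cdk4 (47.2 ± 14.1), Ccnd3 (46.6 ± 3.66), Rbl2 (40.6 ± 7.39) and Ccnd2 (35.7 ± 5.25) followed. Then came Rb1 (18.9 ± 1.60), Cdkn2c (16.0 ± 5.98), Cdkn1a (15.9 ± 6.10) and Cdk6 (9.21 ± 3.05). The step from Ccnd2 to Rb1 was the one step between neighbours at which every library of the higher gene lay above every library of the lower gene. With the length of all annotated exons in place of the longest transcript the upper and lower ends kept Cdkn1b and Cdkn2d first and Cdk6 last, but no neighbours were separated in that way. Ccnd3 (20.5 ± 1.61) then stood below Ccnd2 (24.0 ± 3.53). Among the 11113 tested genes with a length, Cdkn2d stood at percentile 89.9, Cdkn1b at 89.7 and Cdk6 at 48.3.

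Genes around the G1 step, taken from lists of known partners and targets drawn up with earlier results of these data known, gave 0 genes past the edgeR threshold. Of 22 partner genes (cyclins, kinases, their regulators) 19 were tested, with 15 fold changes above 0 and 4 below and a median of 0.37, against 0.01 for all genes. Cks1b, a CDK subunit that helps the SCF ligase take up p27, was at 19.1 and 49.1 CPM in the JAML-negative libraries and 116 and 107.5 CPM in the JAML-positive ones (log2 fold change 1.71, SE 0.42). Ccna2, cyclin A2 of S phase, had a value of 0.77 (SE 0.27) and Fbxw7, which targets cyclin E for decay, of -0.89 (SE 0.40). All 3 had an edgeR adjusted p of 0.609, while DESeq2 gave 0.00684, 0.0337 and 0.0130. The cyclin E genes Ccne1 (0.74, SE 0.50) and Ccne2 (1.20, SE 0.78) had both JAML-positive libraries above both JAML-negative ones, and their kinase Cdk2 (-0.22, SE 0.39) overlapped between groups.

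In the list of E2F, DP and DREAM genes 13 of 18 values were above 0 and 5 below, with a median of 0.33. The smallest p belonged to Tfdp1, the DNA-binding partner of E2F proteins, at 119 and 106 CPM in the JAML-negative libraries and 206 and 164 CPM in the JAML-positive ones (0.71, SE 0.27, adjusted p = 0.609). E2f6, a repressive E2F, was at 1.15 (SE 0.63), the histone-binding DREAM subunit Rbbp4 at 0.36 (SE 0.21), Lin37 of the same complex at 1.30 (SE 0.77) and E2f1 at -0.40 (SE 0.62). The named genes of this list thus had fold changes in both directions, and DESeq2 passed Tfdp1 among them (adjusted p = 0.0132).

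Targets of E2F and other proliferation genes had the highest median of the pathway lists, 0.60, with 18 of 20 values above 0 and 15 of 20 genes with both JAML-positive libraries on top, against 20.3% of all genes. Birc5 (1.18, SE 0.32), Cdk1 (1.02, SE 0.33), Rrm2, a subunit of ribonucleotide reductase (0.70, SE 0.24), and Mcm7 of the replicative helicase (0.63, SE 0.24) each had an edgeR adjusted p of 0.609, and DESeq2 gave 2.99e-05, 4.38e-04, 0.00960 and 0.00593. Mki67, the Ki-67 gene, was at 647 and 687 CPM in the JAML-negative libraries and 748 and 948 CPM in the JAML-positive ones (0.35, SE 0.20). For the 10 G1 regulators the same count was 4 of 10 above 0 with 2 of 10 on top, a share near that of all genes. The 2 lists were not tested against each other.

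Quiescence and antiproliferative genes had 13 of 16 values below 0 and 3 above, at a median of -0.12. Of all 11563 genes tested 5696 were below 0. The groups were apart for 37.5% of the 16 (5 lower and 1 higher in JAML-positive libraries), against 38.5% of all genes. With edgeR 0 of the 16 had an unadjusted p under 0.05. Klf6, a zinc finger factor, was at 1084 and 1083 CPM in the JAML-negative libraries and 765 and 873 CPM in the JAML-positive ones (-0.40, SE 0.19, adjusted p = 0.609). Foxp1, which keeps naive T cells quiescent, had a value of -0.49 (SE 0.25), Tob1, an antiproliferative factor of resting T cells, of -0.48 (SE 0.31), and Tsc2, which restrains mTOR complex activity, of 0.66 (SE 0.41). The p53 genes listed with Cdkn1a were spread around 0, with 9 of 16 tested above and 7 below and a median of 0.03. Trp53 itself had a value of -0.08 (SE 0.30), and the 4 with the smallest p were Trp53inp1 (-0.44, SE 0.24), Zmat3 (1.02, SE 0.64), Gadd45a (-0.69, SE 0.50) and Polk (-0.76, SE 0.57). The edgeR adjusted p-values of these 2 lists were 0.609 to 0.996, and of the genes named from them DESeq2 passed Klf6 (adjusted p = 0.0353).

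**Figure D5:**
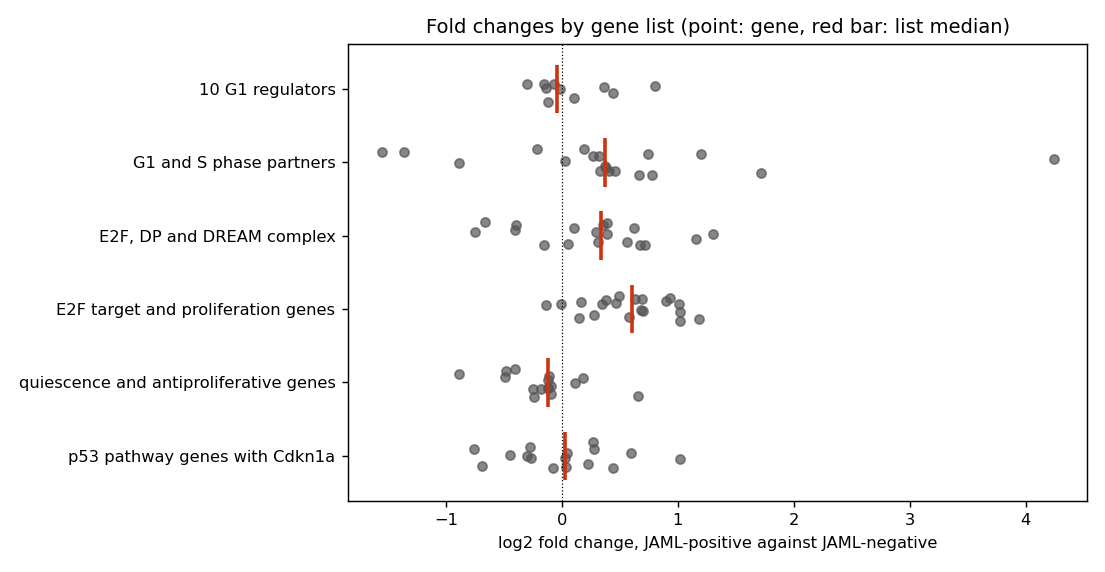
Log2 fold change of JAML-positive against JAML-negative cells (x axis) for each tested gene of 6 lists, 1 point per gene, with the list median as a red bar. The 10 G1 regulators have a median of -0.04, the E2F target and proliferation genes of 0.60 and the quiescence genes of -0.12.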

How the data were processed

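RNA of 4 libraries was sequenced, and the authors deposited 1 table of read counts per gene (whole numbers), with 1 column per library. Per the submitters' processing notes the reads were placed on GRCm38 (mm10). The aligner, counter, annotation and strand handling were not given in the sources used here, so reads of overlapping genes on opposite strands cannot be told apart. Here the counts were tested with edgeR 4.0.16 in R 4.3.3 (filterByExpr with a minimum count of 10, TMM factors, robust quasi-likelihood fit with group as the only term, Benjamini-Hochberg adjustment over 11563 genes, threshold 0.05). The fit uses edgeR's newer quasi-likelihood estimator. It was chosen after both estimators and other combinations of edgeR options had been run, because it gave the gene counts of an earlier analysis of these data. The older one is an alternative, with 0 genes called and 814 at an unadjusted p under 0.05. SE is the absolute log2 fold change over the square root of F. DESeq2 1.42.0 and limma 3.58.1 were alternatives, and the scripts were tested on simulated data. The simulation gave every gene the same spread beyond counting error, so it does not show how the tests perform on these libraries. RefSeq positions (GRCm38.p6) matched 14681 genes (98.3%) by Entrez identifier, and lengths are of the longest GENCODE transcript. Shares were compared by exact permutation over libraries (scipy 1.17.1). Without molecular identifiers, intervals and zero floors describe counting error alone. The genes, lists and tests were chosen with earlier results of these data known. Named are the 10 genes, Jaml, Cd8a, Cd3e, a fixed set of G1 partners and, in each pathway list, the 4 genes of smallest p. Cnn3, Tspan31 and LTO1 were named after their values were seen. Mpeg1 was named by rule, Itgax, Jchain, Cd79a, Cd79b, Cd4, Cd40lg, Ikzf2 and the markers at 0 after their values were seen, and the sums without Mpeg1 were added after that. A listed cell type marker is not reported here.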

Additional observations from a re-analysis of the deposited data

How the results depend on the processing

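Each of 15 alternatives changed 1 choice, and in some the genes tested changed with it. They numbered 11113 with length and GC trends removed and 12992 to 13246 with 1 library left out, against 11563. A fit with 1 library left out has a lone library in an arm, assumed to vary like the others. Genes called numbered 885 with DESeq2, 2 without a filter on low counts, 3 at 30 CPM or more, and 0 to 11 with 1 library left out (11 without JAML-positive B), against 0. Of the 10 G1 genes DESeq2 called 1 and no other alternative any. What libraries of the same letter share is not stated, and A minus B correlated between groups at 0.02 across genes. That value cannot tell whether they are pairs. With the replicate block 0 genes were called, 620 had an unadjusted p under 0.05, and Rbl2 was at 0.0082. With length and GC trends removed and the offsets centred in each library, 7 of the 10 genes were above 0, with a median of 0.0802, and Ccnd2 was at 0.0012, Ccnd3 at 0.0973, Rbl2 at 0.0632 and Cd3e at -0.0618. The centring was introduced after the first run without it, which had moved the median of all genes to -0.21. In that run 2 of the 10 genes were above 0, with Cdkn2d at -0.0780, Rb1 at -0.0339, Jaml at -0.161 and Cd3e at -0.294. Limma-voom placed Rbl2 at 0.0139. With 1 library left out, 5 to 8 genes were above 0, against 48.7% to 56.2% of all genes (8 without JAML-positive A, against 48.7%). The median ran from -0.0542 to 0.328. Groups did not overlap for 4 to 10 genes, a count that grows when an arm has 1 library. The share of all genes in these fits is not given, so nothing is read from that count. Values then ran from -0.377 to 0.0820 for Ccnd2, -0.170 to 0.0277 for Ccnd3, -0.671 to 0.637 for Cdkn1a, -0.634 to 0.606 for Cdkn2c, -0.0231 to 0.236 for Rb1, -0.283 to 0.318 for Rbl2, -0.0908 to 0.0394 for Cd8a, -0.0644 to 0.173 for Cd3e, -0.651 to 0.0855 for Cdk2, -0.737 to 0.0427 for E2f1 and -0.459 to 0.207 for Trp53. The Ccnd3 share differed by -6.22 to 3.13 percentage points and the Cdk4 share by -8.99 to 0.657, and the inhibitor share differed by -11.5 when counts were not divided by length. The cause of these shifts was not tested. With 2 libraries per group the median SE was 0.56, or 0.26 above 100 CPM, so differences of the size fitted for most of these genes could not be told from 0.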
